A study of Mus musculus with 4 samples.

Results

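The genes described here make, load and carry MHC class I molecules. They were chosen by gene name: every non-control probe named H2-D1, H2-K1, H2-K2, H2-L, H2-Q, H2-T, a numbered H2-M or H2-Bl, together with B2m, Tap1, Tap2, Tapbp, Tapbpl, Erap1, Calr3, Psmb8, Psmb9, Psmb10, Psme1, Psme2, Nlrc5 and Mr1. The rule found 58 probes of 42 gene names among 55681 probes of 34821 names. They fall into 3 probes of the classical heavy chains H2-K1 and H2-D1, 37 probes of 27 non-classical or class I-like heavy chains, 8 probes of 7 light chain, transport and loading genes, 8 probes of 5 proteasome genes and 2 probes of Nlrc5. No probe was named H2-L.

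Class I molecules consist of a membrane-bound heavy chain, the light chain beta-2 microglobulin (B2m) and a short peptide, and show fragments of a cell's own proteins to CD8 T cells and natural killer (NK) cells. The peptides are cut by proteasomes, which lymphocytes fit with the interferon-inducible subunits Psmb8, Psmb9 and Psmb10, are pumped into the endoplasmic reticulum by Tap1 and Tap2, and are loaded with the help of tapasin (Tapbp). Classical heavy chains are made by nearly all nucleated cells and vary greatly between strains, whereas the non-classical ones of the Q, T and M regions vary less and often have narrower expression or special ligands. In lymphocytes Nlrc5 drives transcription of the class I genes.

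The cells were Tregs, the regulatory CD4 T cells that hold immune responses in check, from thymus and spleen of male C57BL/6 mice that were deltaDC or wild type (WT). The labels do not spell out deltaDC. In the field it names mice that lack dendritic cells, and no probe of the design checks a deleted gene. The 4 groups were deltaDC thymus, WT thymus, deltaDC spleen and WT spleen, with 1 one-colour Agilent array each and no replicate array. Cells of 3 mice were pooled per genotype. Splenic CD4 T cells were taken by negative selection, thymic ones by depletion of CD8-positive cells, and the sort kept DAPI-negative, CD4-positive, CD25-positive cells without reading Foxp3.

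Values are given as scaled signal, the background-subtracted intensity divided by the 75th percentile of the array, which was 362, 355, 340.1 and 294.9 on the deltaDC thymus, WT thymus, deltaDC spleen and WT spleen arrays. Between 48.1% and 49.9% of probes were well above background on an array, all 4 arrays shared 1 slide, and 0 spots were saturated. The error given with a log2 difference is the spot error, the spread of repeated spots of like brightness carried over both arrays. It holds no variation between mice, sorts or labellings, so a difference beyond it separates 2 arrays and not 2 conditions, and the number of arrays limits the precision. Foxp3, the transcription factor that defines Tregs, had scaled signals of 31.3 and 26.2 in deltaDC and WT thymus and 32.3 and 34.7 in deltaDC and WT spleen, and all 7 T cell and Treg markers on the array were above background on every array.

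Markers of other cells were present at unequal levels. Class I molecules are carried by nearly all of these cells, and in bulk RNA fewer cells of a type and less RNA per cell cannot be told apart. Neutrophil markers (1 of 6 above background on all 4 arrays) summed to scaled signals of 6.95, 2.42, 29.1 and 0.143 in deltaDC thymus, WT thymus, deltaDC spleen and WT spleen. The NK cell markers (5 of 6 on all 4) summed to 25.5, 23.6, 83.2 and 10.98 in the same order, and the B cell markers (2 of 6) to 16.9, 9.88, 5.73 and 6.01. Dendritic cell markers (1 of 6) summed to 129, 147, 134 and 208, of which Siglech alone gave 128, 146, 134 and 208. Siglech was read from the brightest of its 3 probes. Of 11 dendritic cell probes only this 1 was well above background on both spleen arrays, so the other Siglech probes did not share its level there. The other dendritic cell genes Itgax, Zbtb46 and Flt3 were not well above background on the WT spleen array and were at least 5.41-, 5.23- and 1.41-fold higher on deltaDC spleen. Macrophage markers (1 of 5) summed to 3.58, 2.28, 5.27 and 3.07, CD8 markers (1 of 2) to 2.83, 2.18, 0.927 and 1.14, and thymic epithelial markers (2 of 6) to 1.48, 0.974, 0.659 and 0.639. The dendritic cell genes Xcr1 and Clec9a, the B cell gene Pax5 and the thymic epithelial gene Foxn1 were not well above background on any array. The part of these cells in the results below was not tested.

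The probes of class I genes are alike in sequence, which bears on how far their values stand for separate genes. The membrane-spanning ends of H2-K1, H2-T23 and H2-Q8 show this, with capitals marking the 14 bases that all 3 probes share; H2-K1 and H2-T23 share a run of 29 bases. On mm9, the build of the files, these probes lie at chr17:34133984-34134043 (minus strand), chr17:36167338-36167574 (minus strand, with a gap) and chr17:35565247-35565306 (plus strand).
H2-K1: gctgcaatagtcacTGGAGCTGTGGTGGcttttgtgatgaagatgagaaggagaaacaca
H2-T23: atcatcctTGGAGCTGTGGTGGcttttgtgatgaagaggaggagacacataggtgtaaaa
H2-Q8: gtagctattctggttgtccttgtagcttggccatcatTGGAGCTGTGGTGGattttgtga

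A closer pair is formed by probes of H2-Q2 at chr17:35460007-35460066 and of H2-Q10 at chr17:35610036-35610095, both on the plus strand of mm9. They match at 45 of 50 overlapping bases, and capitals mark the 5 that differ. The file names the first probe H2-Q2, but it lies closer to the H2-Q1 probe (chr17:35461859-35461918) than to the other H2-Q2 probe (chr17:35482113-35482172).
H2-Q2: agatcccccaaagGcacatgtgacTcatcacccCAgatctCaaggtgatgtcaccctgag
H2-Q10: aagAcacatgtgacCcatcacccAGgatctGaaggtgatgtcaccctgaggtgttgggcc

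The first H2-K2 probe and the H2-Q7 probe match at 49 of 57 overlapping bases. The H2-Q8 probe is identical over 54 bases to a probe that is no member and carries only an Ensembl transcript name, and that probe differed between thymus and spleen by -0.68 in deltaDC and -0.62 in WT mice, close to H2-Q8 below. The H2-Q7 probe also lists H2-Q9, the H2-Q8 probe lists H2-Q6, the H2-T9 probe carries an accession of H2-T22, and H2-K2, H2-Bl, H2-Q5 and H2-T10 are transcribed pseudogenes in RefSeq. How much signal one class I transcript gives on the probe of another was not measured, so the values below belong to probes. Of the 58 probes, 54 have an mm9 position and 41 lie on chromosome 17, which holds the mouse MHC. B2m lies on chromosome 2, Psme1 and Psme2 on 14, Psmb10 and Nlrc5 on 8, Tapbpl on 6, Erap1 on 13 and Mr1 on 1.

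The upstream regions of some heavy chain genes hold short motifs, shown here for the classical genes and H2-Q7. The windows of Psmb9 and Psmb10 held no exact match to the motifs marked below, and these genes were also lower on both thymus arrays. A link between motifs and thymus values was not tested. RefSeq windows of 300 bases (250 before and 50 after the start, GRCm38.p6) were found for 30 of the 42 gene names. Capitals mark, on either strand, GGGATTCCC (a binding site of NF-kappaB), GAAGTGAAA (part of the interferon response element) and TGACGC (a site of the CREB and ATF family). The windows of H2-K1 at chr17:34000298-34000597 (minus strand), H2-D1 at chr17:35262844-35263143 (plus strand) and H2-Q7 at chr17:35438905-35439204 (plus strand) read as follows.
H2-K1: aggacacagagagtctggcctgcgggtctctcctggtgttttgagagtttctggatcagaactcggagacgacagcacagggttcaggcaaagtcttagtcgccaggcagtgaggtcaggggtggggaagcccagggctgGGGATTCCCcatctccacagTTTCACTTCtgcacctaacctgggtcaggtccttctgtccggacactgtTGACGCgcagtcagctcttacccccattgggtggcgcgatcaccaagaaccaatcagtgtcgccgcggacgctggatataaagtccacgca
H2-D1: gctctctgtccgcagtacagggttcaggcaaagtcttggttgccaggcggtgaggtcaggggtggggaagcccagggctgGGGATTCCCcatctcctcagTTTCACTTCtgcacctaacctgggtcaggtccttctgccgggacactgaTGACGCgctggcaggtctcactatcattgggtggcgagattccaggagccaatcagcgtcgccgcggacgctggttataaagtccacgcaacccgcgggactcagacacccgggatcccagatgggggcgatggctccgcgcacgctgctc
H2-Q7: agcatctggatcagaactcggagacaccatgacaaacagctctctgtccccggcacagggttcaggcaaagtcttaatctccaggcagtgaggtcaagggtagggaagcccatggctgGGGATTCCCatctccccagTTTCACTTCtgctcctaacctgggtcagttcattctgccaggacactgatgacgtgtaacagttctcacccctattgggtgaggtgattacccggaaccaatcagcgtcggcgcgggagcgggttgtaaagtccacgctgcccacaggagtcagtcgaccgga

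GGGATTCCC stood in the windows of H2-K1, H2-D1 and H2-Q7 alone among the 30 genes, and in 0.353% of all 32851 windows. GAAGTGAAA stood in 6 genes' windows (H2-K1, H2-D1, H2-Q4, H2-Q7, H2-Q10, H2-M3) and in 0.505% of all. TGACGC was in those of H2-K1, H2-D1, H2-M3, H2-Q4, Psme2 and Calr3, and in 7.4% of all. A more open interferon-type motif, GAAANNGAA, was in the windows of B2m, H2-T23, Psme1 and Erap1, and in 8.56% of all. The marked motifs do not overlap in the 3 windows printed, and a match is a description of letters, not of a site in use. The windows of Tap1 and Psmb9, which lie head to head in the MHC, share 275 bases and hold none of these 4 motifs. A further motif searched, CCAAT, stood in the windows of 21 of the 30 genes, Tap1 and Psmb9 among them, and in 37.4% of all.

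Of the 58 probes, 38 were well above background on all 4 arrays (44.1% of all probes were), 3 on some arrays and 17 on none (44.4% of all). By gene, 30 of 42 were measured on all 4 arrays through at least 1 probe. The 11 genes with no probe above background on any array were Calr3, a calreticulin best known from the testis, and the heavy chains H2-M1, H2-M5, H2-M9, H2-M10.1, H2-M10.2, H2-M10.3, H2-M10.4, H2-M10.6, H2-Q1 and H2-T3. H2-M1, H2-M9, the H2-M10 genes and H2-M11 are known in the mouse from vomeronasal neurons, and H2-T3, which encodes the TL antigen, from gut epithelium. H2-T18 was above background on 1 array only. Thus 3 of 11 genes with M numbers were measured on all 4 arrays (H2-M2, H2-M3, H2-M11), against 6 of 7 Q genes and 4 of 6 T genes.

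**Figure D1:**
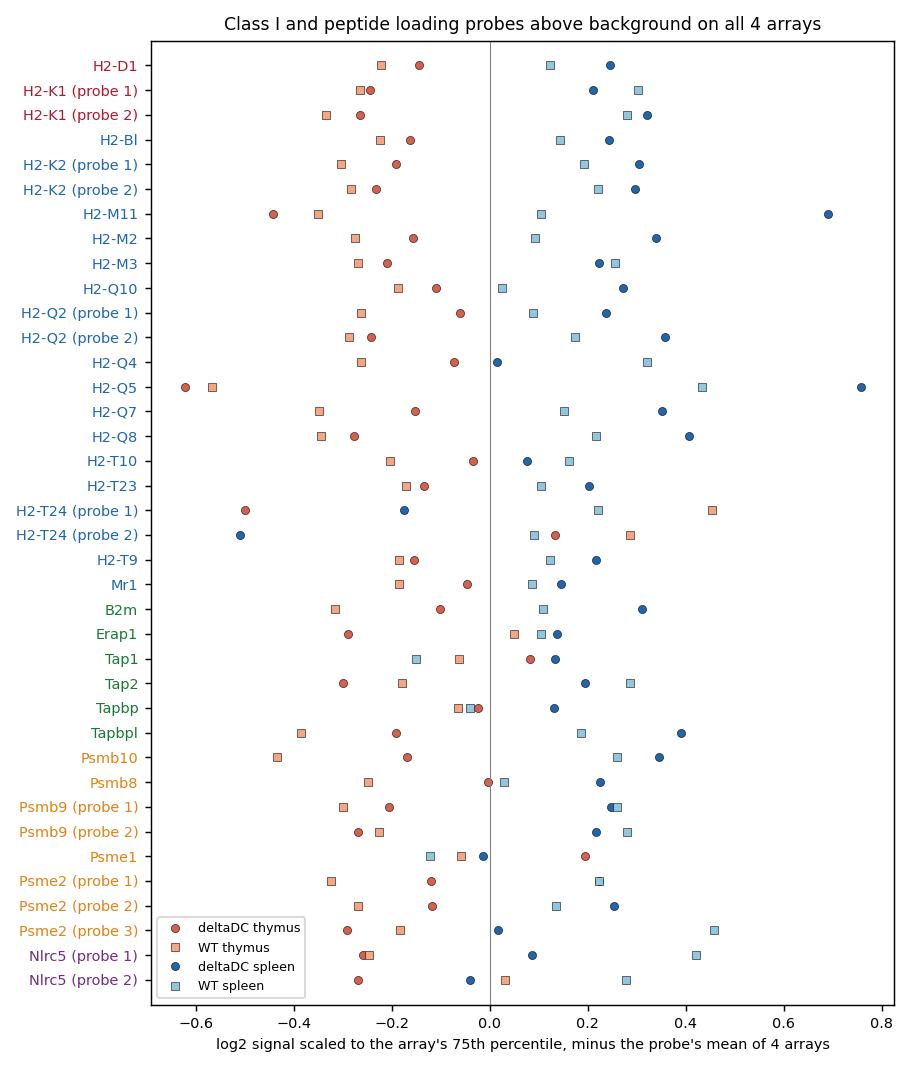
Scaled log2 signal of the 38 probes above background on all 4 arrays (1 row each), minus the probe's mean, for deltaDC thymus and WT thymus (red, orange) and deltaDC spleen and WT spleen (dark and light blue). Label colours mark classical (red), non-classical (blue), loading (green), proteasome (orange) and Nlrc5 (purple) genes; for 32 probes both thymus points lie left of both spleen points.

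The comparison of thymus with spleen asked how class I genes differ between Tregs of the organ where they form and those of a peripheral organ. Most member probes were lower on the thymus array of each genotype. The differences were small: the median log2 difference, thymus minus spleen, was -0.40 over 38 measured probes in deltaDC mice and -0.44 over 38 in WT mice, against -0.02 and -0.15 over all 25822 and 25338 probes measured. In deltaDC mice 2 of 38 member probes were above 0 (47.5% of all probes were) and in WT mice 4 of 38 (36.3% of all). At least 2-fold, 2 were lower and 0 higher in deltaDC mice (10% of all probes passed 2-fold in either direction), and 0 passed in WT mice (9.83% of all). At 1.5-fold, 1 member probe was higher and 5 lower in deltaDC mice (23% of all probes passed), and 0 higher and 5 lower in WT mice (26% of all). On 32 of the 38 probes above background on all 4 arrays, both thymus arrays lay below both spleen arrays, against 34% of all such probes, and on 1 probe both lay above.

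Probes as bright as most members were themselves lower on the WT thymus array. Over the 2199 probes of any gene with a mean signal of at least 10000, the median was -0.05 in deltaDC mice and -0.31 in WT mice, while the 22 member probes of that brightness had medians of -0.43 and -0.48. The WT difference of the members from all probes was thus partly shared by bright probes, and it was -0.08 log2 units after quantile normalization and -0.05 in the authors' deposited matrix, against -0.29 as scaled here. In deltaDC mice it was -0.32 in both settings and -0.37 as scaled here. Taking the brightest probe of each of 30 genes, thymus was the lower for 28 genes in deltaDC and 27 in WT mice as scaled here, for 26 and 23 after quantile normalization, and for 27 and 22 in the deposited matrix. Several of the brightest members thus had no stable direction in WT mice. The WT difference turned to 0.05 and 0.13 for H2-D1 and to 0.13 and 0.07 for H2-T23 after quantile normalization and in the matrix. For B2m and H2-K1 it turned to 0.07 and 0.02 in the matrix, and for the brighter H2-Q2 probe to 0.07 after quantile normalization. In deltaDC mice these 5 genes stayed below 0 in every setting in which they were compared.

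**Figure D2:**
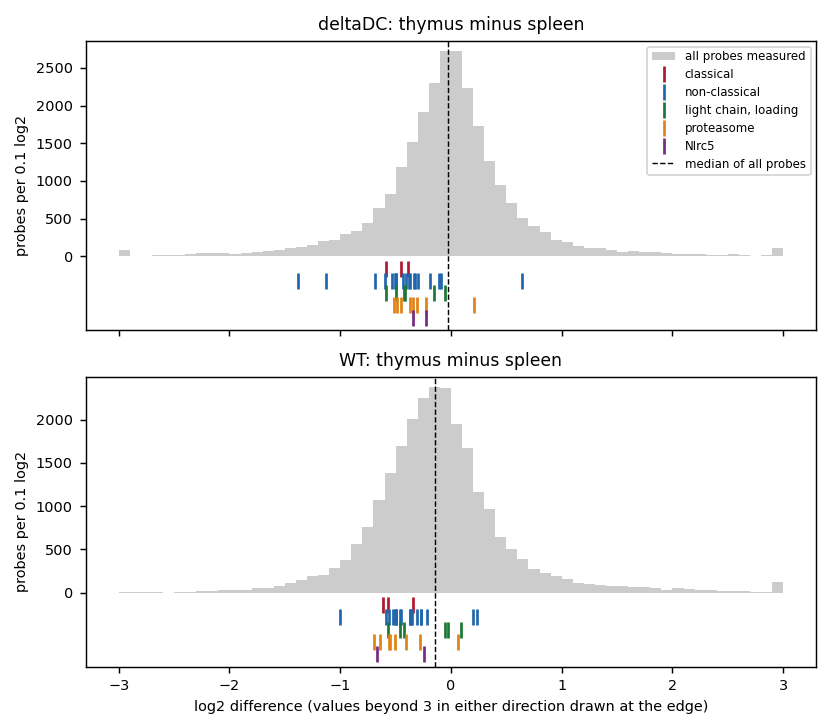
Log2 difference thymus minus spleen in deltaDC (top) and WT mice (bottom): grey bars count all measured probes per 0.1 log2 units, coloured ticks are the member probes by group, and the dashed line is the median of all probes. Most ticks lie left of the dashed line in both panels, and 2 lie beyond -1 in deltaDC mice.

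The classical heavy chains present peptides to conventional CD8 T cells. H2-K1 had scaled signals of 448 in deltaDC thymus, 442 in WT thymus, 615 in deltaDC spleen and 655 in WT spleen on a probe with 10 spots. Both thymus values lay below both spleen values, and the log2 differences were -0.46 ± 0.02 in deltaDC and -0.57 ± 0.02 in WT mice (spot error). The second H2-K1 probe gave 223, 213, 335 and 326 in the same order of arrays, and differences of -0.59 ± 0.07 and -0.61 ± 0.07. H2-D1 had 264 and 250.2 in deltaDC and WT thymus and 346 and 318 in deltaDC and WT spleen, so that it too was lower on both thymus arrays, by differences of -0.39 ± 0.07 in deltaDC and -0.35 ± 0.07 in WT mice.

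The non-classical heavy chains showed the same direction in 18 of 19 measured probes in deltaDC mice and in 17 of 19 in WT mice. Their median log2 difference was -0.41 in deltaDC and -0.37 in WT mice, against -0.46 and -0.57 for the 3 classical probes. Classical minus non-classical was -0.05 in deltaDC and -0.20 in WT mice, and the WT value took the other sign after quantile normalization (0.07) and in the authors' deposited matrix (0.20), so no order of classical and non-classical genes holds across the settings tried.

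Among the Q genes, H2-Q5 stood furthest from the rest. Its probe (chr17:35532392-35532451, plus strand, mm9) had scaled signals of 18.1 in deltaDC thymus, 18.8 in WT thymus, 47.0 in deltaDC spleen and 37.6 in WT spleen. The thymus arrays lay close together and far below both spleen arrays, with log2 differences of -1.38 ± 0.07 in deltaDC mice and -0.999 ± 0.07 in WT mice, where it fell just short of 2-fold. H2-Q7 (the Qa-2 antigen, with H2-Q9) had 354, 309, 502 and 437 on deltaDC thymus, WT thymus, deltaDC spleen and WT spleen, which gave -0.50 ± 0.07 in each genotype. H2-Q8 had 133 and 127 in deltaDC and WT thymus against 213 and 187 in deltaDC and WT spleen, differences of -0.68 and -0.56. Both were lower on each thymus array than on either spleen array. The 2 H2-Q2 probes differed by -0.30 and -0.60 in deltaDC mice and by -0.35 and -0.46 in WT mice. H2-Q4 had 82.5, 72.3, 87.7 and 108 on deltaDC thymus, WT thymus, deltaDC spleen and WT spleen, and so differed little between the organs in deltaDC mice (-0.09 ± 0.07) and more in WT mice (-0.58 ± 0.07).

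The T genes include H2-T23, whose product Qa-1 is the ligand of the NK receptor Klrc1 with Klrd1. H2-T23 had scaled signals of 294 in deltaDC thymus, 287 in WT thymus, 371 in deltaDC spleen and 347 in WT spleen, lower on both thymus arrays by -0.34 ± 0.07 in deltaDC and -0.27 ± 0.07 in WT mice. The H2-T9 probe differed by -0.37 and -0.31 and the pseudogene H2-T10 by -0.11 and -0.37 in deltaDC and WT mice. H2-T24 departed from most members. Its second probe had 3.30 and 3.68 in deltaDC and WT thymus and 2.12 and 3.21 in deltaDC and WT spleen, higher on both thymus arrays, by 0.64 ± 0.10 in deltaDC and 0.20 ± 0.10 in WT mice. Its first probe had 0.561 and 1.09 in thymus and 0.702 and 0.925 in spleen (deltaDC first each time), which gave -0.32 ± 0.11 in deltaDC and 0.23 ± 0.11 in WT mice, so the probes of this gene disagreed in deltaDC mice.

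Of the M genes, H2-M3, which presents formylated bacterial peptides in the mouse, had 5.04, 4.84, 6.80 and 6.95 on deltaDC thymus, WT thymus, deltaDC spleen and WT spleen. It was lower on both thymus arrays, by -0.43 ± 0.08 in deltaDC and -0.52 ± 0.08 in WT mice. H2-M11 was dim on every array, with 0.0586 and 0.0625 in deltaDC and WT thymus and 0.128 and 0.0856 in deltaDC and WT spleen. Its differences of -1.13 ± 0.50 in deltaDC and -0.45 ± 0.50 in WT mice carry the largest spot error of the measured members. The class I-like Mr1, which presents vitamin B metabolites to MAIT cells, differed by -0.19 ± 0.11 in deltaDC and -0.27 ± 0.11 in WT mice. The pseudogenes H2-K2 and H2-Bl differed by -0.37 to -0.53 over their 3 probes and both genotypes.

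For H2-M2 and H2-Q10 the probes of 1 gene name gave opposite or unlike patterns. The first H2-M2 probe, spotted 10 times, had scaled signals of 37.9 in deltaDC thymus, 34.9 in WT thymus, 53.4 in deltaDC spleen and 45.0 in WT spleen, lower on both thymus arrays (-0.50 ± 0.02 in deltaDC and -0.37 ± 0.02 in WT mice). The second, which maps next to it on mm9 (chr17:37618042-37618101, minus strand), had 0.0975 and 0.0988 in deltaDC and WT thymus and was not well above background in deltaDC or WT spleen. It was at least 3.54-fold higher in thymus of deltaDC mice and at least 1.92-fold higher in thymus of WT mice, each bound being the bright signal against the lowest signal well above background on the dim array. That lowest signal, before scaling, was 9.36 on deltaDC spleen and 15.2 on WT spleen, so these bounds do not compare the genotypes. The first H2-Q10 probe had 25.0, 23.7, 32.5 and 27.4 on deltaDC thymus, WT thymus, deltaDC spleen and WT spleen and differed by -0.38 ± 0.08 in deltaDC and -0.21 ± 0.08 in WT mice. The second was not well above background in deltaDC or WT thymus and had 0.116 and 0.0938 in deltaDC and WT spleen, at least 2.47-fold and 2.02-fold lower in thymus of deltaDC and WT mice. The 3 H2-T18 probes gave 1 value above background, 0.176 in WT thymus, which was at least 3.42-fold higher than WT spleen.

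**Figure D3:**
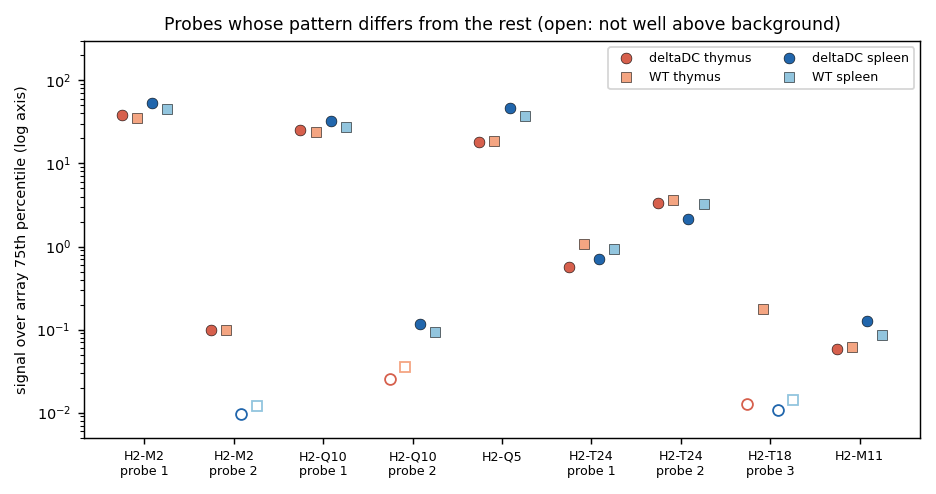
Scaled signal (log axis) on deltaDC thymus, WT thymus, deltaDC spleen and WT spleen for 9 probes whose pattern departs from the other members; open symbols were not well above background. The second H2-M2 probe is measured on the thymus arrays only, the second H2-Q10 probe on the spleen arrays only, and H2-Q5 is lower on both thymus arrays.

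B2m, the light chain shared by all class I molecules, had scaled signals of 224 in deltaDC thymus, 193 in WT thymus, 298 in deltaDC spleen and 259.7 in WT spleen. Both thymus arrays lay below both spleen arrays, with log2 differences of -0.41 ± 0.05 in deltaDC and -0.43 ± 0.05 in WT mice, near those of H2-D1. The tapasin-like editor Tapbpl had 8.82, 7.72, 13.2 and 11.5 in the same order and the largest difference of this group, -0.58 ± 0.08 in deltaDC and -0.57 ± 0.08 in WT mice. Tap2 had 79.1 and 86.1 in deltaDC and WT thymus against 111 and 119 in deltaDC and WT spleen, -0.49 ± 0.07 and -0.46 ± 0.07. Its partner in the transporter, Tap1, had 15.2, 13.7, 15.7 and 12.9 on deltaDC thymus, WT thymus, deltaDC spleen and WT spleen over 10 spots. Tap1 hardly differed between the organs, by -0.05 ± 0.03 in deltaDC and 0.09 ± 0.03 in WT mice, and tapasin itself by -0.15 ± 0.07 and -0.03 ± 0.07. Erap1, which trims peptides in the endoplasmic reticulum, had 0.563, 0.712, 0.757 and 0.740 on the same 4 arrays, lower in thymus beyond the spot error in deltaDC mice (-0.43 ± 0.11) but not in WT mice (-0.05 ± 0.11).

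The immunoproteasome subunits replace the catalytic subunits of the standard proteasome. Psmb10 had scaled signals of 87.1 in deltaDC thymus, 72.4 in WT thymus, 124 in deltaDC spleen and 117 in WT spleen, differing by -0.51 ± 0.07 in deltaDC and -0.69 ± 0.07 in WT mice. Psmb9 had 53.3, 49.96, 73.0 and 73.6 in that order, -0.45 ± 0.07 and -0.56 ± 0.07, and its second probe by -0.49 ± 0.11 and -0.51 ± 0.11. Psmb9 was thus lower on both thymus arrays while Tap1, whose upstream window it shares, was not. Psmb8 had 82.5 and 69.7 in deltaDC and WT thymus and 96.7 and 84.4 in deltaDC and WT spleen, -0.23 ± 0.07 and -0.28 ± 0.07. Of the activator of these proteasomes, Psme2 differed by -0.31 to -0.37 over 3 probes in deltaDC mice and by -0.40 to -0.64 in WT mice. Psme1 was the exception, with 112 and 94.1 in deltaDC and WT thymus and 97.1 and 90.1 in deltaDC and WT spleen, higher in thymus by 0.21 ± 0.02 in deltaDC and 0.06 ± 0.02 in WT mice.

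Nlrc5, the transactivator, had 28.3 in deltaDC thymus, 28.5 in WT thymus, 35.9 in deltaDC spleen and 45.3 in WT spleen on its brighter probe. This gave -0.34 ± 0.07 in deltaDC and -0.67 ± 0.07 in WT mice. The dimmer probe had 1.49, 1.83, 1.74 and 2.17 and differed by -0.23 ± 0.11 in deltaDC and -0.25 ± 0.11 in WT mice.

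Genes of the same pathway outside the rule did not share one direction. Over 21 measured probes of the standard proteasome the median log2 difference, thymus minus spleen, was 0.02 in deltaDC and -0.03 in WT mice, against -0.36 and -0.53 over the 8 probes of Psmb8, Psmb9, Psmb10, Psme1 and Psme2. The 14 probes of general folding chaperones had medians of -0.17 and -0.06, and the 9 of cytosolic peptide trimming enzymes -0.03 and 0.01. Of these 3 lists, 1 gene passed 2-fold in a direct measurement: Thop1, a peptidase that destroys proteasome products, had 2.12 and 1.88 in deltaDC and WT thymus and 1.04 and 0.881 in deltaDC and WT spleen, higher by 1.04 and 1.09. The thymus-specific subunit Psmb11, known from thymic cortical epithelium, was above background only on the deltaDC thymus array (0.135, at least 4.90-fold above deltaDC spleen). The 21 probes of class I regulators (interferon signalling, RFX and NF-kappaB genes) had medians of -0.04 in deltaDC and -0.39 in WT mice, and 0 of them passed 2-fold. The processing and loading genes encoded inside the MHC (6 probes) had medians of -0.34 and -0.37, and the 8 measured probes of those encoded elsewhere -0.39 and -0.49, so the lower thymus values were found on several chromosomes.

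The fit of genotype plus organ over the 4 arrays (limma, moderated two-sided test, Benjamini-Hochberg adjustment over 27951 probes) has 1 residual degree of freedom. It called 0 of the 40 member probes fitted for organ, against 141 of all probes (0.504%). At an unadjusted p under 0.05 there were 13 member probes, 12 lower and 1 higher in thymus. Among all 27951 probes fitted there were 5398, of which 2891 were lower and 2507 higher in thymus. The lowest adjusted p among members was 0.0553, for the second H2-M2 probe (log2 effect 3.19, higher on both thymus arrays). This probe met the filter of the fit through the thymus arrays alone. Its effect is taken against spleen values not well above background, so no conclusion is drawn from its p in any setting. Next among the named members above background on all 4 arrays was H2-Q5, with an effect of -1.19 ± 0.19 (SE) and an adjusted p of 0.142. After normexp background correction H2-Q5 passed, with an adjusted p of 0.0444, and the H2-M2 probe passed after median centring (0.0486) and without a filter on dim probes (0.0225). On simulated data of this size, 200 probes were changed per set. The fit recovered 0% of organ differences of 1 or 2 log2 units, 6.8% of those of 4 and 56% of those of 6. Recovery after adjustment depends on how many probes change, which is not known for these arrays, so these shares need not hold here.

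The comparison of deltaDC with WT asked whether class I genes differ in Tregs of mice named for a lack of dendritic cells. The members' medians lay nearer 0 than in the organ comparison, and 0 of 39 measured member probes passed 2-fold in either organ (1.66% of all probes did in thymus and 7.85% in spleen). At 1.5-fold, 1 was lower in thymus (7.13% of all probes passed), and 1 was higher and 1 lower in spleen (20.9% of all). In thymus the median log2 difference, deltaDC minus WT, was 0.07 over the members and 0.05 over all 26248 probes measured, with 28 of 39 members above 0 (58% of all). In spleen it was 0.10 over the members and -0.08 over all 25618, with 26 of 39 members above 0 (42% of all). On 22 of the 38 probes above background on all 4 arrays deltaDC was the higher in each organ, and on 7 the lower. The share of all probes with either pattern was not counted, so these counts describe the members only. Both deltaDC arrays lay above both WT arrays on 3 probes, those of Psme1, Tap1 and Tapbp, against 13.8% of all such probes.

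**Figure D4:**
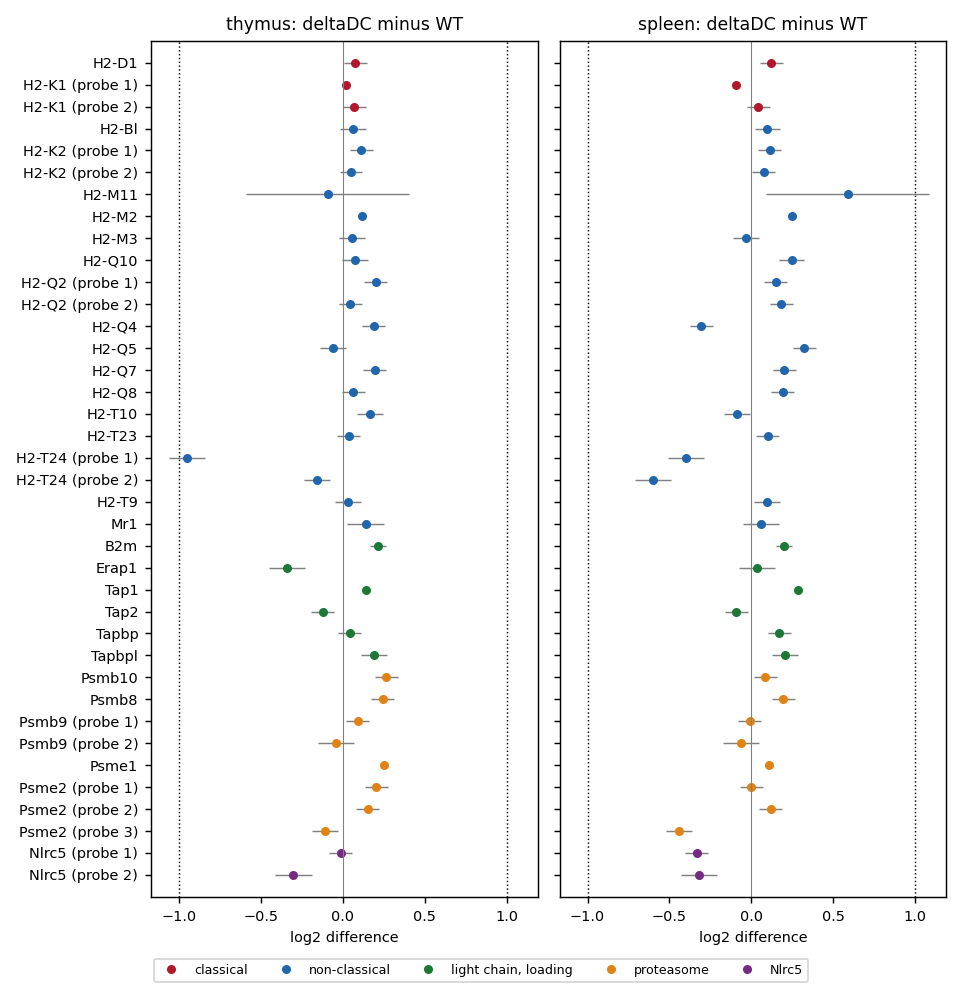
Log2 difference deltaDC minus WT in thymus (left) and spleen (right) for the 38 probes above background on all 4 arrays, with bars of 1 spot error and dotted lines at a 2-fold difference. All points lie inside the dotted lines, and the first H2-T24 probe in thymus, at -0.95, comes nearest to one.

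For the classical heavy chains the genotype differences were small in both organs, and 3 of the 4 signs of their brightest probes turned with the scaling. H2-K1 differed by 0.02 ± 0.02 in thymus and -0.09 ± 0.02 in spleen on its first probe, and by 0.07 ± 0.07 and 0.04 ± 0.07 on its second. H2-D1 differed by 0.08 ± 0.07 in thymus and 0.12 ± 0.07 in spleen. After quantile normalization H2-K1 differed by -0.10 in thymus and 0.15 in spleen, and H2-D1 by -0.06 in thymus. The medians of the non-classical probes, 0.06 in thymus and 0.10 in spleen, were close to those of the classical ones, 0.07 and 0.04.

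B2m was higher in deltaDC than in WT cells in each organ, by 0.22 ± 0.05 in thymus and 0.20 ± 0.05 in spleen. Psmb8 (0.24 ± 0.07 and 0.20 ± 0.07), Tap1 (0.14 ± 0.03 and 0.28 ± 0.03), Tapbpl (0.19 ± 0.08 and 0.20 ± 0.08) and H2-Q7 (0.20 ± 0.07 in each organ) showed the same direction in thymus and spleen beyond the spot error. B2m and these genes stayed above 0 under each other scaling, although B2m and H2-Q7 in thymus were at 0.01 and 0.00116 in the deposited matrix. In thymus, 11 of 30 genes changed sign after quantile normalization, 11 in the matrix and 8 with median centring, among them H2-T23 and Tapbp under each. In spleen 3, 4 and 4 did. Psmb10 differed by 0.27 ± 0.07 in thymus and 0.09 ± 0.07 in spleen, Psme1 by 0.25 ± 0.02 and 0.11 ± 0.02, Tapbp by 0.04 ± 0.07 and 0.17 ± 0.07, and Erap1 by -0.34 ± 0.11 and 0.03 ± 0.11. The median of all probes of at least 10000 mean signal was 0.17 in thymus and -0.12 in spleen. The standard proteasome had medians of 0.24 in thymus and 0.17 in spleen, and the chaperones 0.10 and 0.26, so higher values in deltaDC cells were not found in class I genes alone.

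Some members were lower in deltaDC cells. Both Nlrc5 probes were lower in spleen, by -0.33 ± 0.07 and -0.32 ± 0.11, and in thymus by -0.01 ± 0.07 and -0.30 ± 0.11. H2-T24 was lower in deltaDC cells in each organ on both probes: -0.95 ± 0.11 in thymus and -0.40 ± 0.11 in spleen on the first, -0.16 ± 0.08 and -0.60 ± 0.11 on the second. Tap2 differed by -0.12 ± 0.07 in thymus and -0.09 ± 0.07 in spleen, the spleen value being -0.00136 with median centring. H2-Q4 was higher in deltaDC thymus (0.19 ± 0.07) and lower in deltaDC spleen (-0.31 ± 0.07). H2-Q5 differed by -0.06 ± 0.08 in thymus and 0.32 ± 0.07 in spleen, and the dim H2-M11 by -0.09 ± 0.50 and 0.59 ± 0.50. The single H2-T18 value left deltaDC thymus at least 3.76-fold lower than WT thymus.

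In the fit over all arrays 0 of 27951 probes (0%) were called by limma for genotype, with 1603 probes and 0 members at an unadjusted p under 0.05. The lowest adjusted p of a member was 0.763, shared by the first H2-T24 probe, with an effect of -0.67, and the dimmer Nlrc5 probe, with one of -0.31. On simulated data with 200 changed probes per set, the fit recovered 0% of genotype differences of 1 or 2 log2 units and 16% at 4. These shares too need not hold for these arrays.

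Some receptors that read class I molecules differed more between the spleen arrays than any measured member did. On the deltaDC spleen array 3 of 5 measured genes were at least 2-fold higher than on WT spleen: Klrc1 (5.26 and 0.0834, a log2 difference of 5.98), its partner Klrd1 (2.42 and 0.133, 4.19) and Cd160 (1.70 and 0.434, 1.97). The activating receptor Klrk1 was at least 8.44-fold higher. The other 2 measured receptor genes were slightly lower on deltaDC spleen, Lilrb3 by -0.24 and Cd8b1 by -0.30. The Lilrb3 value, with scaled signals of 738 and 875 in deltaDC and WT spleen, is that of the brightest of its 3 probes. Only 6 of the 11 receptor probes were measured on both spleen arrays. In thymus the same 3 genes differed by 0.75, 0.78 and 0.52 between deltaDC and WT. The sums of NK and of neutrophil markers given above were also highest on the deltaDC spleen array. The NK marker Klra8 (0.401, 0.323 and 0.293 in deltaDC thymus, WT thymus and deltaDC spleen) was instead higher on both thymus arrays. So was the neutrophil marker Mpo (4.16, 1.86 and 1.59). The part of such cells in these receptor levels was not tested. The ligand of Klrc1 with Klrd1, Qa-1, differed by 0.10 ± 0.07 in spleen through its H2-T23 probe. The coreceptor gene Cd8a was above background on the thymus arrays only, at least 21.9-fold higher in thymus of deltaDC and 5.92-fold in thymus of WT mice. Its scaled signals were 0.601 in deltaDC and 0.305 in WT thymus. The bounds rest on unlike lowest signals of the spleen arrays (9.36 in deltaDC, 15.2 in WT) and do not compare the genotypes. The other coreceptor gene, Cd8b1, was above background on all 4 arrays, with 2.22 and 1.87 in deltaDC and WT thymus and 0.901 and 1.11 in deltaDC and WT spleen, differences of 1.30 in deltaDC and 0.76 in WT mice.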

How the data were processed

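RNA of sorted Tregs was labelled with Cy3 and hybridised to 4 one-colour arrays, per the labels. Per the file headers, each deposited scanner file gives intensity from Agilent Feature Extraction 10.7.3.1 after background subtraction and detrending inside the array, not scaled across arrays, beside flags of 0 or 1. The authors also deposited a matrix of log2 values whose header states background subtraction and quantile normalization; each of its columns correlated best with its own label's scanner array (r = 0.997 across genes), with medians of 4.10 in deltaDC thymus, 4.15 in WT thymus, 4.11 in deltaDC spleen and 4.10 in WT spleen, so scale and direction follow from the scanner files, columns were not centred on 0, and any offset is unknown. It served as an alternative only.

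The 3671 control spots of 62976 and the spots with an outlier flag (168, 151, 131 and 110 on deltaDC thymus, WT thymus, deltaDC spleen and WT spleen) were left out. Log2 intensity was taken relative to the 75th percentile of the non-control probes of its array, and repeated spots were averaged. Spot error came from 399 probes with 10 spots each (SD of 0.35 on the log2 scale for signals below 50 and of 0.05 for those over 10000). Probes well above background on both arrays of a comparison counted as measured. A probe above background on 1 array got only a bound, the normalized bright value set against the dim array's lowest well-above-background value, or against the dim value itself where that is higher. That lowest value is no detection limit. On deltaDC spleen it was a signal of 9.36, while Fcgr1 with 17.1 was not well above background there. Between single arrays there is no test. Genotype plus organ was fitted with limma 3.58.1 in R 4.3.3 on 27951 probes that 2 or more arrays measured above background, and p-values were called under 0.05 after Benjamini-Hochberg adjustment. It was tested on 5 simulated sets with 200 changed probes each, which gave 3.4 false genotype calls per set. Tables and figures were made with Python 3.11.15, pandas 2.3.3 and matplotlib 3.10.9.

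The members, the pathway and marker lists and the tests were chosen with earlier results of these data known. Named were all members above background on at least 1 array, every probe of a gene whose probes differ by more than 1 log2 unit, and those genes of the lists that differ at least 2-fold; a few further probes and dim marker genes were named after their values were seen. A list gene outside the members was represented by its brightest probe where it is named. Alternatives were normexp background correction, quantile normalization, median centring, the deposited matrix, filters on dim probes, one probe per gene, kept outlier spots and a 1.5-fold threshold. Probe positions are those of the files (mm9). Promoter windows, gene types and accession names came from RefSeq tables (GRCm38.p6), and no genome was used here.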

Additional observations from a re-analysis of the deposited data

Results flagged for a closer look

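For 3 member probes the differences of 2 pairs of arrays had opposite signs. With 1 array per group the differences between those pairs were not tested. H2-Q4 was higher on the deltaDC than on the WT thymus array (0.19) and lower on the deltaDC than on the WT spleen array (-0.31), spleen minus thymus being -0.49. The first H2-T24 probe was lower in thymus than in spleen of deltaDC mice (-0.32) and higher in thymus than in spleen of WT mice (0.23), deltaDC minus WT being -0.56. Tap1 showed the same pattern of signs, with -0.05 in deltaDC and 0.09 in WT mice, deltaDC minus WT being -0.14.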

How the results depend on the processing

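The fit of genotype plus organ compares the organs within each genotype, whose cells were pooled, and no other paired analysis was run. Each group has 1 array, so no replicate could be left out. In all 10 settings the members' median lay below that of all probes in both organ comparisons, with members minus all between -0.41 and -0.32 in deltaDC mice and between -0.30 and -0.05 in WT mice. In spleen it lay above that of all probes for genotype in all 10 (0.16 to 0.32), and in thymus it ran between -0.05 and 0.02. In WT mice the organ value was -0.20 with normexp, -0.0770 with quantile normalization, -0.0516 in the deposited matrix and -0.12 without a filter on dim probes. The spleen genotype value was 0.32 without that filter, where the median of all probes shifted to -0.30. Member probes past 2-fold, reported as 0 and 0 for genotype in thymus and spleen and 2 and 0 for organ in deltaDC and WT mice, numbered 2, 1, 4 and 4 without the filter and 1, 2, 6 and 5 at 1.5-fold. With each gene's probe median the organ counts were 4 and 1, normexp gave 1 for organ in deltaDC mice, and median centring 1 for genotype in thymus. Classical minus non-classical, in the same order 0.01, -0.06, -0.05 and -0.20, was -0.11 for genotype in thymus and 0.0324 in spleen by the deposited matrix. Without the filter it was 0.13 for genotype in spleen, and for organ -0.35 in deltaDC and -0.27 in WT mice. For organ in WT mice it was 0.0740 with quantile normalization, 0.20 in the matrix, -0.0899 with the brightest probe and -0.0372 with the gene median. The count of members called for organ by limma was 1 instead of 0 with normexp, with median centring and without the filter, at lowest adjusted p-values of 0.0444, 0.0486 and 0.0225 against 0.0553. The values of 0.0486, 0.0225 and 0.0553 belong to the second H2-M2 probe, whose spleen values were not well above background. All probes called for organ numbered 741 with normexp, 516 without the filter, and 0 with quantile normalization, the matrix, probes above background on all 4 arrays or the brightest probe, against 141. Of 120 single-gene differences, 20 changed sign with quantile normalization, 21 in the matrix, 14 with median centring, 4 with normexp, and 1 with outlier spots kept, as did 5 of 36 with the gene median, and 74, 76, 91, 25, 2 and 18 moved beyond the spot error in that order. The causes were not tested.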

Other observations

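Other class I-like proteins, which fold like class I heavy chains but lie outside the rule, did not share one direction between the organs. Of the lipid-presenting CD1d pair, Cd1d2 had scaled signals of 5.97 in deltaDC thymus, 5.67 in WT thymus, 3.60 in deltaDC spleen and 4.17 in WT spleen, higher on both thymus arrays by log2 differences of 0.73 in deltaDC and 0.44 in WT mice. Cd1d1 had 17.9, 17.8, 14.2 and 16.8 in that order, with differences of 0.33 and 0.09. Fcgrt, the neonatal Fc receptor, was dim and ran the other way, by -0.63 in deltaDC mice (Hfe by -0.43) and at least 2.23-fold lower on the WT thymus array, where it was not well above background. These genes were named after their values were seen.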
